A study of Drosophila melanogaster with 6 samples.

Results

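Arginine tRNAs were followed in short RNA libraries from midguts of female fruit flies in which RNA polymerase III (Pol III), the enzyme that transcribes all nuclear tRNA genes, was partly lost. They were taken as every listed transcript whose annotated name marks it as a nuclear arginine tRNA, which gave 9 sequences out of 85 nuclear tRNAs, in a table of 527 transcripts matched to the annotation and 4 that were not. The mutant flies were heterozygous for dC53EY22749, a P-element insertion in Polr3D (formerly dC53), a subunit found only in Pol III, and are written here as Polr3D EY/+. The wild type was White Dahomey, an outbred stock carrying a white mutation. The insertion had been backcrossed into Dahomey flies, so the groups share that background. Per the study, the flies were 1 week old and homozygotes for the insertion do not survive. The question was whether a partial loss of Pol III changes all arginine tRNAs alike or alters the balance between those that read the 4 CGN codons and those that read AGA and AGG.

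There were 3 libraries of each genotype, with 13465392 to 16891428 estimated counts each and 125086 to 249791 of these on arginine tRNAs. Nuclear tRNAs took 10.7% to 11.3% of the counts in the wild type and 14.5% to 16.1% in the mutant, so the summed share of the class differed with genotype. The table holds short transcripts, and neither midgut marker mRNAs nor Polr3D mRNA were analysed here, so tissue and genotype rest on the labels. In bulk tissue, fewer cells of a type and less RNA per cell cannot be told apart. Nothing in the labels says that the libraries of a group came from separate fly cultures, so p-values measure the spread between these samples, which may in part be technical.

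Arginine is a residue with 6 codons. A tRNA reads a codon through its anticodon, and the base at the anticodon's first position can pair by wobble with more than a single codon base. The tRNA with anticodon ACG has this A converted to inosine in eukaryotes and reads CGU, CGC and CGA. The TCG anticodon pairs with CGA and can read CGG by wobble. The TCT anticodon reads AGA and can wobble to AGG, and CCT reads AGG. Like other tRNA genes, arginine tRNA genes have promoter elements inside the transcribed sequence, to which TFIIIC binds before Pol III is recruited.

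The annotation of the BDGP6 assembly held 26 nuclear arginine tRNA genes, all of 1 exon and 73 bases, with 4 anticodons. No gene with a CCG anticodon was annotated. Arg-ACG-1 stands for 10 identical genes, 5 on chromosome arm 2R and 5 in a short array on 3R, where the listed copy, tRNA:Arg-ACG-1-10 (FBtr0081809), spans 8140970 to 8141042 on the minus strand. The TCG anticodon has 4 sequences. Arg-TCG-2 stands for 4 genes on X and 3R, with the listed copy tRNA:Arg-TCG-2-4 (FBtr0091521) at 8862933 to 8863005 of 3R, plus strand. Arg-TCG-3 stands for 4 genes on X, with tRNA:Arg-TCG-3-1 (FBtr0073860) at 14016203 to 14016275, plus strand. The single-gene sequences are tRNA:Arg-TCG-1-1 (FBtr0073871; X, 14103719 to 14103791, minus strand) and tRNA:Arg-TCG-4-1 (FBtr0078790; 3R, 5388228 to 5388300, plus strand).

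The TCT anticodon has 3 single-gene sequences. They are tRNA:Arg-TCT-1-1 (FBtr0088087, on the minus strand of 2R from 11652367 to 11652439), tRNA:Arg-TCT-2-1 (FBtr0077812; 2L, 1965426 to 1965498, plus strand) and tRNA:Arg-TCT-3-1 (FBtr0077834; 2L, 2187007 to 2187079, plus strand). Arg-CCT-1 stands for 3 genes, 1 on 2L and 2 on 2R, with the listed copy tRNA:Arg-CCT-1-3 (FBtr0100846) at 20000819 to 20000891 of 2R, plus strand. Of the 26 genes, 21 had another tRNA gene within 10 kb, and 8 lay inside another gene, always on its opposite strand. Those 8 were in introns of EcR, pyd, Mnr, kkv and erm (6 genes) or opposite an exon (2 genes). The exonic pair are tRNA:Arg-TCG-2-4, opposite an exon of pyd, and tRNA:Arg-TCT-3-1, opposite an exon of lncRNA:CR44066. Whether strand was used in counting is not given in the sources used here, so reads of these pairs cannot be told apart. All members have the same length, so length does not bias comparisons of their counts. Incomplete demethylation can lower counts of heavily modified tRNAs, so differences between sequences may in part reflect modification, which was not tested. Levels here are therefore counted levels, given as CPM, counts scaled to a library total of 1000000 after TMM adjustment. TMM is a scaling that assumes most transcripts do not change.

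The 9 sequences fell into 4 abundant and 5 sparse ones. tRNA:Arg-TCG-2-4 was the most abundant, with a mean level of 6179 CPM over the 6 libraries, the sixth highest of the 85 listed nuclear tRNAs. It was followed by tRNA:Arg-CCT-1-3 with 2515.5 CPM, tRNA:Arg-ACG-1-10 with 2061 CPM and tRNA:Arg-TCT-1-1 with 1071 CPM. tRNA:Arg-CCT-1-3 and tRNA:Arg-ACG-1-10 overlapped in level within each genotype and their order is not resolved, whereas the lowest level of tRNA:Arg-ACG-1-10 in each genotype was above the highest of tRNA:Arg-TCT-1-1. The fifth, tRNA:Arg-TCG-1-1, had only 18.1 CPM. The remaining sequences had 1.24 CPM (tRNA:Arg-TCG-3-1), 1.12 CPM (tRNA:Arg-TCG-4-1), 0.629 CPM (tRNA:Arg-TCT-2-1) and 0.165 CPM (tRNA:Arg-TCT-3-1). Neighbours in this order overlapped within each genotype, except that tRNA:Arg-TCT-2-1 was above tRNA:Arg-TCT-3-1 in every mutant library.

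**Figure D1:**
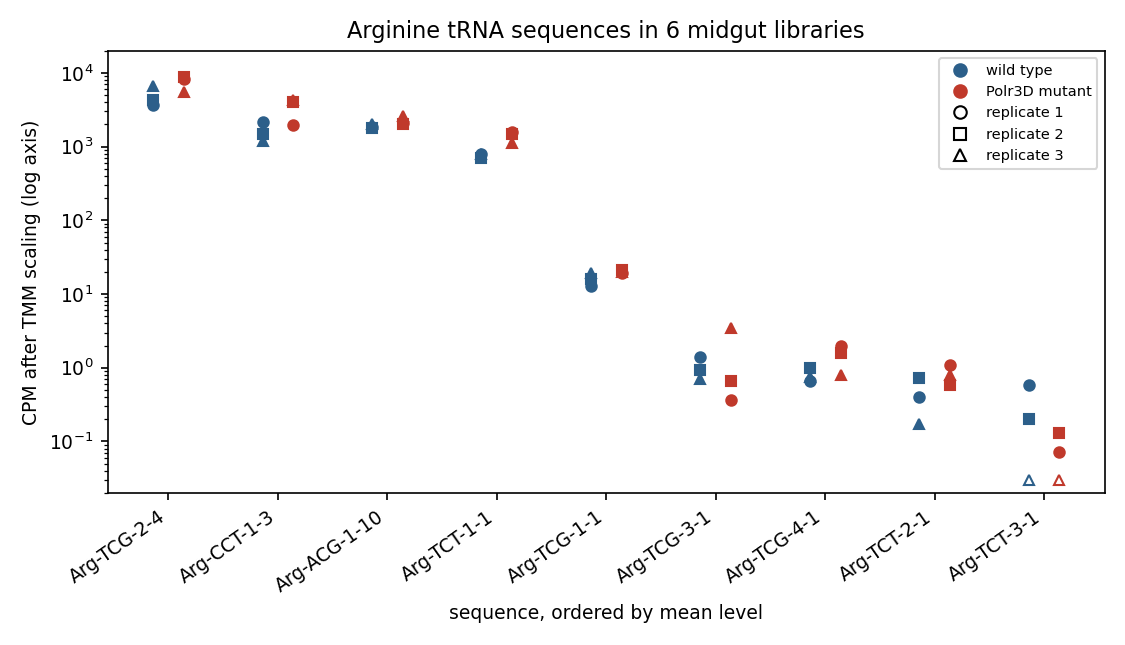
Level of each arginine tRNA sequence in CPM (TMM-scaled, logarithmic axis) in 3 wild-type and 3 Polr3D EY/+ libraries; open symbols at the foot of the axis mark libraries with 0 counts. The 4 abundant sequences lie at or above 707 CPM in every library and the other 5 at or below 21.4 CPM.

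Counted level of single sequences did not follow gene number. Divided by the annotated copies, the wild-type level was 1211 CPM per gene for Arg-TCG-2, 761 for the single Arg-TCT-1 gene, 533.4 for Arg-CCT-1 and 188 for Arg-ACG-1. Arg-TCG-3, which has as many genes as Arg-TCG-2, stood at 0.251 CPM per gene. These sequences share an anticodon and can exchange reads in Salmon's assignment, so the division of reads between them is uncertain and the sum per anticodon is the safer quantity. By sums, TCG and ACG, which have more genes than TCT and CCT, had higher wild-type means (4863 and 1882 against 762 and 1600.1 CPM). ACG and CCT overlapped between wild-type libraries, and in the mutant the CCT mean was the higher (3431 against 2240 CPM). Identity between the sequences was not computed here.

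Of the 9 sequences, 8 passed the filter on low counts and entered the test across all transcripts, which used edgeR's quasi-likelihood test with Benjamini-Hochberg adjustment over 411 transcripts and a false discovery rate of 10%. A single member was called, tRNA:Arg-TCT-1-1, beside 5 calls in the whole table, which is 1.22% of the transcripts tested, all higher in the mutant. The 8 tested members had log2 fold changes from 0.25 to 1.10 with a median of 0.73, and all 8 were above 0, as were 87.5% of the nuclear tRNAs and 44.5% of all transcripts tested. For comparison, 62 of the 72 other nuclear tRNAs tested were above 0, with a median of 0.32 and 4 calls, and the median of all 411 transcripts was -0.05. Unadjusted p-values were below 0.05 in 3 of the 8 members and in 14.8% of all transcripts. Under TMM scaling, in 3 members every mutant library was above every wild-type library, a pattern found in 8.03% of all transcripts and in 30.0% of the nuclear tRNAs tested. None of the 8 had every mutant library below every wild-type library, a pattern in 10.7% of all transcripts and 2.5% of the nuclear tRNAs.

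tRNA:Arg-TCT-1-1, which reads AGA, rose. Its level was 1570.3, 1466 and 1104 CPM in mutant replicates 1, 2 and 3 and 789, 707 and 788 CPM in wild-type replicates 1, 2 and 3. The groups were well apart, and the wild-type libraries were close to each other. The mean ± SD of 3 libraries was 1380.1 ± 245 CPM for the mutant and 761 ± 46.8 CPM for the wild type. By edgeR this was a log2 fold change of 0.86 with an SE of 0.16 (adjusted p = 0.0933), or 1.81-fold. It had the smallest p of all nuclear tRNAs tested, but ranked only 17th of 80 by the size of its change. The call was close to its threshold and was lost without mutant replicate 2 (adjusted p = 0.153) or without wild-type replicate 1, 2 or 3 (0.318, 0.245 and 0.168), while the log2 fold change ranged from 0.75 to 1.01 over the 6 fits that leave out a library. It was also lost with limma-voom (adjusted p = 0.119) and with libraries scaled on mitochondrial tRNAs (0.192), and it was kept with DESeq2 (8.41e-05).

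The tRNA reading AGG had the largest estimated change of the family but did not pass. tRNA:Arg-CCT-1-3 had 1951, 3989 and 4353 CPM in mutant replicates 1 to 3 and 2126, 1491 and 1183 CPM in wild-type replicates 1 to 3. Mutant replicate 1 lay below wild-type replicate 1, so the groups overlapped. The mean ± SD of 3 libraries was 3431 ± 1295 CPM against 1600.1 ± 481 CPM. The edgeR estimate was a log2 fold change of 1.10 with an SE of 0.32 (adjusted p = 0.18). Without mutant replicate 1 the log2 fold change was 1.37 and the adjusted p was 0.0503, in a fit with 12 calls in the whole table. DESeq2 on all 6 libraries gave 0.0145. DESeq2 called 7.3% of all transcripts.

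The abundant TCG tRNA, for CGN codons, did not pass. tRNA:Arg-TCG-2-4 stood at 8322, 8719 and 5498 CPM in mutant replicates 1 to 3 and at 3634.5, 4307 and 6595.5 CPM in wild-type replicates 1 to 3. Mutant replicate 3 was below wild-type replicate 3, and these libraries made the groups overlap. The log2 fold change was 0.63 (SE 0.26, edgeR adjusted p = 0.31). Without mutant replicate 3 it was 0.83 (adjusted p = 0.0668), in a fit with 47 calls in the whole table. DESeq2 on all libraries gave an adjusted p of 0.0996.

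The inosine-containing tRNA differed least. tRNA:Arg-ACG-1-10 had 2077, 2046 and 2598 CPM in mutant replicates 1 to 3 and 1862, 1788 and 1997 CPM in wild-type replicates 1 to 3. All mutant values were above all wild-type values under TMM scaling, by a narrow margin. Its log2 fold change was 0.25 (SE 0.15, edgeR adjusted p = 0.431), 48th of 80 nuclear tRNAs, and it was 0.03 under scaling on mitochondrial tRNAs and -0.19 under scaling on nuclear tRNAs.

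The sparse sequences allow little. tRNA:Arg-TCG-1-1 had 269, 329 and 297 counts in mutant replicates 1 to 3 and 194, 242 and 328 counts in wild-type replicates 1 to 3. After scaling, the mutant values (19.4 to 21.4 CPM) were all above the wild-type values (12.7 to 19.1 CPM), at an estimate of 0.34 on the log2 scale (SE 0.19; adjusted p = 0.412 by edgeR) that became -0.08 under scaling on nuclear tRNAs. tRNA:Arg-TCG-4-1 had 27, 24 and 12 counts in the mutant and 10, 15 and 13 in the wild type, which overlap (log2 fold change 0.83, SE 0.43, edgeR adjusted p = 0.391). tRNA:Arg-TCG-3-1 had 5, 10 and 51 counts in the mutant and 21, 14 and 12 in the wild type. Mutant replicate 3 alone held most of the mutant counts of this sequence, and the estimated log2 fold change went from 0.57 (SE 0.74; adjusted p = 0.699 by edgeR) to -0.95 without that library. tRNA:Arg-TCT-2-1 had 15, 9 and 12 counts against 6, 11 and 3 (log2 fold change 0.93, SE 0.58, edgeR adjusted p = 0.449). tRNA:Arg-TCT-3-1 had 1, 2 and 0 counts against 9, 3 and 0 and was not tested. A count of 0 allows up to 3 counts, which is 0.192 CPM of the library total in mutant replicate 3 and 0.178 CPM in wild-type replicate 3. None of the sparse sequences tested was called by edgeR. Apart from tRNA:Arg-TCG-1-1, none had more than 51 counts in a library, and no difference was detectable in them at this depth.

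**Figure D2:**
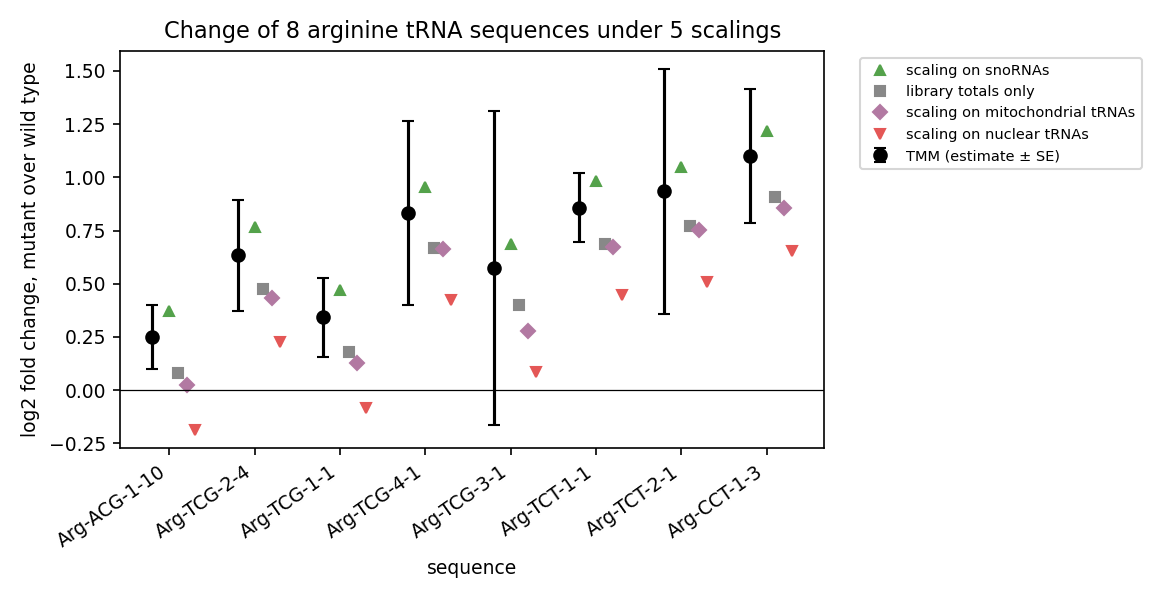
Log2 fold change (mutant over wild type) of the 8 tested arginine tRNA sequences from edgeR, with its standard error under TMM scaling and the estimate alone under 4 other scalings. The order of the estimates is the same under each scaling, but a change of scaling moves all of them by similar amounts, so this says little. tRNA:Arg-ACG-1-10 and tRNA:Arg-TCG-1-1 fall below 0 when libraries are scaled on nuclear tRNAs (-0.19 and -0.08).

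The size of each change moved with the scaling. Relative to TMM, the median log2 fold change of all 411 transcripts moved by -0.43 under scaling on nuclear tRNAs, by -0.21 on mitochondrial tRNAs, by -0.17 with library totals alone and by 0.12 on snoRNAs. tRNA:Arg-TCT-1-1 ranged from 0.45 to 0.98 and tRNA:Arg-CCT-1-3 from 0.65 to 1.22 over the scalings tried, so both stayed above 0. tRNA:Arg-TCG-2-4 ranged from 0.23 to 0.77. The mitochondrial arginine tRNA, mt:tRNA:Arg-TCG, is not made by Pol III. Its mean ± SD was 25918 ± 3121 CPM over 3 mutant libraries and 25893 ± 1117.5 CPM over 3 wild-type libraries. Its log2 fold change under TMM scaling was 0.0014 (SE 0.16). It does not stand for its class, since scaling on mitochondrial tRNAs moved the median of all transcripts by -0.21.

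Counts were next summed per anticodon, to keep reads exchanged between sequences of the same anticodon within a sum. For ACG, TCG, TCT and CCT the sums repeated the leading sequence of each, with log2 fold changes of 0.25 (SE 0.15), 0.63 (SE 0.25), 0.86 (SE 0.16) and 1.10 (SE 0.31). The edgeR adjusted p-values over the 375 sums and other transcripts were 0.434, 0.326, 0.147 and 0.193. No row of that table was called by edgeR (0.0% of those tested, with 54 at an unadjusted p below 0.05) or by limma-voom (56 at an unadjusted p below 0.05), whereas DESeq2 called 33 rows, or 8.8%, among them all 4 arginine anticodons. Leaving out mutant replicate 1 or 3 brought the TCT sum below the threshold (adjusted p = 0.0883 and 0.00812), leaving out mutant replicate 1 did so for CCT (0.0579), and leaving out mutant replicate 3 for TCG (0.0536). In those fits edgeR calls of single transcripts rose from 5 to 12 without mutant replicate 1 and to 47 without mutant replicate 3. Calls among sums were not counted there.

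**Figure D3:**
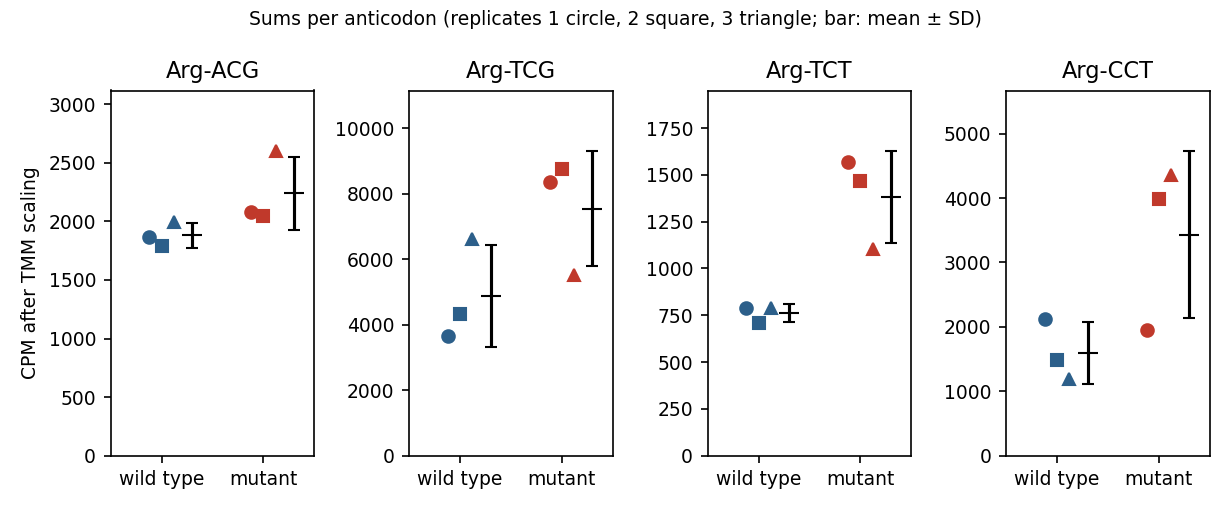
Sum of arginine tRNA counts per anticodon in CPM (TMM-scaled, axes from 0) in each wild-type and Polr3D EY/+ library, with symbols for the replicate number and a bar for the mean ± SD of 3 libraries. The groups are apart for ACG and TCT and overlap for TCG and CCT.

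By codon box, the tRNAs for AGA and AGG together had 3522, 5455 and 5458 CPM in mutant replicates 1 to 3 and 2916, 2199 and 1972 CPM in wild-type replicates 1 to 3. Every mutant library was above every wild-type library. The mean ± SD of 3 libraries was 4812 ± 1117 CPM against 2362 ± 493 CPM, and edgeR gave a log2 fold change of 1.03 with an SE of 0.21 (adjusted p = 0.138). The tRNAs for the CGN codons had 10421, 10789 and 8120 CPM in the mutant replicates and 5512, 6113 and 8613 CPM in the wild-type replicates. Here mutant replicate 3 and wild-type replicate 3 crossed. The log2 fold change was 0.54 (SE 0.20, edgeR adjusted p = 0.369). The table of box sums held no edgeR or limma-voom calls (0.0% of 355, with 46 and 49 at an unadjusted p below 0.05) and 22 by DESeq2 (6.2%), including both arginine boxes. Leaving out mutant replicate 1 or 3 took the AGA and AGG box below the threshold (adjusted p = 0.0868 and 0.0419), and leaving out mutant replicate 3 took the CGN box below it (0.0598). Single-transcript calls rose too, from 5 with all libraries to 12 without mutant replicate 1 and 47 without mutant replicate 3.

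The whole arginine pool had 13943, 16244 and 13578 CPM in the mutant replicates and 8427, 8312 and 10585 CPM in the wild-type replicates, with no overlap. This was a log2 fold change of 0.68 (SE 0.15), with an edgeR adjusted p of 0.146 over 352 isotype sums and other transcripts, where edgeR called 0.0% (45 at an unadjusted p below 0.05), limma-voom called 0 (48 at an unadjusted p below 0.05) and DESeq2 called 19 (5.4%). It passed with DESeq2 and without mutant replicate 3 (edgeR adjusted p = 0.0342), a fit in which 47 single transcripts were called. As a share of nuclear tRNA counts, arginine tRNAs took 9.02% ± 0.905 against 8.79% ± 0.796 (mean ± SD of 3 mutant and 3 wild-type libraries), and the groups overlapped (exact permutation p = 0.7, two-sided). An increase of arginine tRNAs beyond that of the class was therefore not resolved.

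The balance between the anticodons was tested within each library, where scaling plays no part. The smallest two-sided p that an exact permutation test of 3 libraries against 3 can give is 0.1. ACG took 14.9%, 12.6% and 19.1% of the arginine counts in mutant replicates 1 to 3 and 22.1%, 21.5% and 18.9% in wild-type replicates 1 to 3, a mean difference of -5.28 percentage points (exact permutation p = 0.2). Mutant replicate 3 fell among the wild-type libraries. TCT took 8.14% to 11.3% in the mutant and 7.45% to 9.37% in the wild type (exact permutation p = 0.5). The 95% Wilson interval of such a share was at most 0.277 percentage points to either side, which covers counting error only.

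CCT and TCG varied more between libraries of a genotype than between genotypes. CCT took 14.0%, 24.6% and 32.1% of arginine counts in mutant replicates 1 to 3, and 25.2%, 17.9% and 11.2% in wild-type replicates 1 to 3. TCG took 59.8%, 53.8% and 40.7% in the mutant replicates and 43.3%, 52.0% and 62.5% in the wild-type replicates. In both genotypes the library with the largest CCT share had the smallest TCG share and the reverse. Shares of a pool are not independent, since a larger share of one lowers the others. In CPM, mutant replicate 2 had most TCG (8743) whereas mutant replicate 1 had least CCT (1951). Neither the CCT nor the TCG share differed beyond the spread between libraries (exact permutation p = 0.5 and 0.8). The small share of tRNA:Arg-TCG-1-1 was lower in every mutant library, at 0.132% to 0.147% against 0.151% to 0.193% (exact permutation p = 0.1). Over the 14 measures of composition tested, the lowest adjusted value was 0.778.

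**Figure D4:**
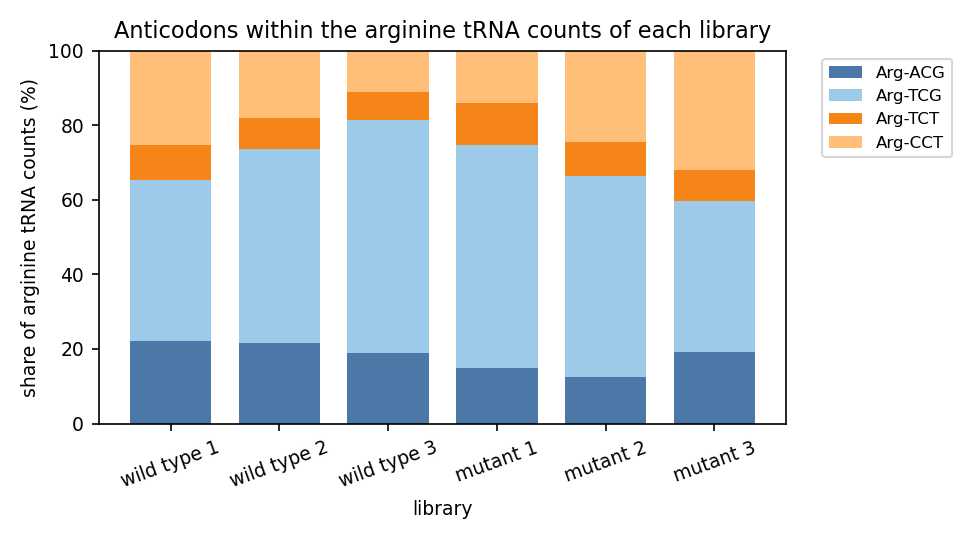
Share of the arginine tRNA counts (%) held by each anticodon in each wild-type and Polr3D EY/+ library, 1 bar per library. CCT ranges from 11.2% to 25.2% in the wild type and from 14.0% to 32.1% in the mutant. The TCG share moves the opposite way, but shares within a library are not independent.

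The log2 ratio of AGA and AGG tRNAs to CGN tRNAs was -1.565, -0.98 and -0.57 in mutant replicates 1 to 3 and -0.92, -1.47 and -2.13 in wild-type replicates 1 to 3. The means differed by 0.47, less than the SD of either group (0.50 and 0.60), with an exact permutation p of 0.5. An unequal change of the boxes was not detectable in these libraries. Once tRNA:Arg-TCG-2-4 and tRNA:Arg-CCT-1-3, the most counted sequence of each box, were set aside, the difference was 0.60 and the groups no longer overlapped (exact permutation p = 0.1, the smallest possible). That comparison is nearly the ratio of TCT to ACG. This ratio was examined among the 6 pairs of anticodons after their values were seen. Its log2 values were -0.40, -0.48 and -1.23 in the mutant replicates and -1.24, -1.34 and -1.34 in the wild-type replicates. All mutant values were above all wild-type values, although mutant replicate 3 barely so, and the exact permutation p of 0.1 became 0.6 after adjustment over the 6 pairs.

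Leucine and serine tRNAs are the other families split between a box of 4 codons and a box of 2. For leucine, the log2 ratio of UUR to CUN tRNAs was lower in the mutant by 0.23 on average, with means of -3.09 and -2.85 in mutant and wild type (exact permutation p = 0.2). For serine, the ratio of AGY to UCN tRNAs had means of -2.01 and -2.42, a difference of 0.41 (exact permutation p = 0.2). Both overlapped between genotypes. The change in the arginine ratio differed from that in leucine by 0.70 (exact permutation p = 0.2, or 0.267 adjusted over 4 tests) and from that in serine by 0.059 (exact permutation p = 0.9), so neither contrast was resolved. The summed tRNAs of these boxes had log2 fold changes of 0.06 for Leu-UUR, 0.29 for Leu-CUN, 0.29 for Ser-UCN and 0.74 for Ser-AGY. None passed edgeR's threshold (adjusted p from 0.198 to 0.825). Under TMM scaling, mutant and wild-type libraries did not overlap in Ser-AGY or in the serine pool, as in the AGA and AGG box and the arginine pool. The genotypes overlapped in Leu-UUR, Leu-CUN, Ser-UCN and the leucine pool. Among single nuclear tRNAs tested, 30.0% had every mutant library above every wild-type library. That share was not computed over sums, and overlap of the sums under other scalings was not examined.

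**Figure D5:**
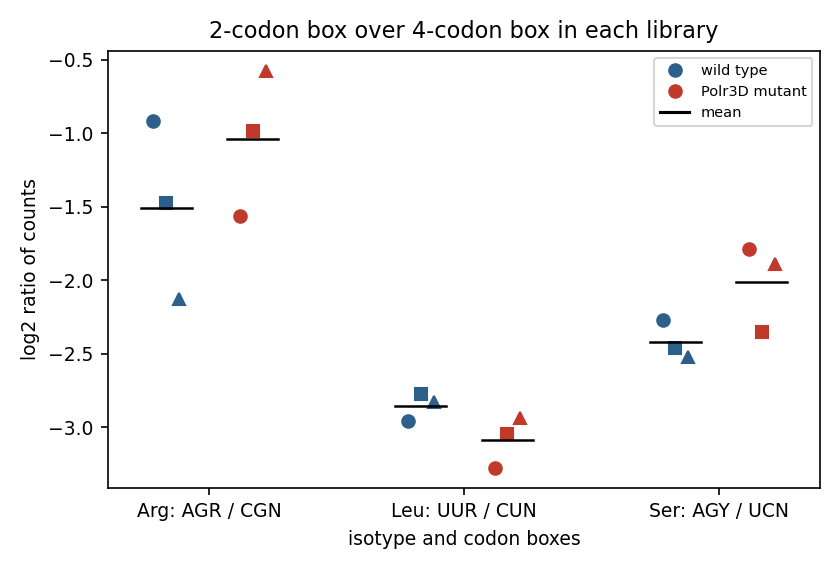
Log2 ratio of counts for the tRNAs of the 2-codon box over those of the 4-codon box in arginine, leucine and serine, for each library (symbol shape gives the replicate number) with the mean of 3 as a line. The genotypes overlap in all 3 families, and the arginine ratio spreads most, from -2.13 to -0.57.

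The transcripts whose profile over the 6 libraries was nearest to that of the arginine sum were sought among the 403 other tested transcripts, by the root mean square difference of mean-centred log2 CPM. The nearest were tRNA:Glu-CTC-1-1 (0.113), tRNA:Pro-CGG-2-3 (0.134), mt:tRNA:Phe-GAA (0.179), tRNA:Glu-CTC-2-1 (0.179) and tRNA:Ser-TGA-1-1 (0.182), against a median of 0.438. Of these, 4 are nuclear tRNAs and 1 is mitochondrial.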

How the data were processed

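Short midgut RNA was selected by size and demethylated before library preparation, per the labels. Incomplete demethylation can lower counts of heavily modified tRNAs. The authors trimmed reads with Cutadapt, quantified transcripts with Salmon against BDGP6 and kept short ones. The authors deposited estimated counts (expected counts), as whole numbers without scaling for depth. Identical tRNA genes are listed once.

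Of 531 transcripts, 527 were matched by identifier to the Ensembl annotation of BDGP6. The test was edgeR (version 4.0.16; R version 4.3.3), with filterByExpr (minimum count 10, minimum total 15), TMM factors, glmQLFit and glmQLFTest on genotype, p-values adjusted over the whole table at 0.10. For sums per anticodon, codon box and isotype, nuclear tRNA rows were replaced by the sums, other transcripts and the TMM factors were kept, and adjustment was over that table. SE was derived from the F statistic. Alternatives used DESeq2 (version 1.42.0), the study's tool, and limma-voom (version 3.58.1), other scalings, no filter, a replicate block and leaving out each library. The test was run on simulated data with the same spread for every transcript, so its error rate in these libraries was not tested. Ratios and shares within libraries were compared by exact two-sided permutation. Profile likeness used log2 of CPM plus 0.5.

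All members are named whatever their values; leucine and serine boxes, mt:tRNA:Arg-TCG and the 5 nearest profiles were added. Members and lists were chosen with earlier results of these data known. Replicate libraries all differed by more than counting noise (chi-square over its degrees of freedom 220.4 to 1468).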

Additional observations from a re-analysis of the deposited data

How the results depend on the processing

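Whole-table calls moved most: 5 under the reported fit, 6 with mitochondrial tRNA scaling, and 10 with DESeq2 size factors or snoRNA scaling. They were 16 with library totals or no filter, 30 with DESeq2 and 226 with nuclear tRNA scaling. With limma-voom there were 0 (61 at an unadjusted p below 0.05). Calls numbered 12, 1 and 47 without mutant replicate 1, 2 or 3, and 0 without wild-type replicate 1, 2 or 3. Arginine sequences called were 0 with mitochondrial tRNA scaling or limma-voom, 2 with nuclear tRNA scaling or no filter, 3 with DESeq2, and 0 to 2 when a library was left out. For the sums that follow, the share of rows called was not computed under other scalings, without the filter or with sums fitted alone. Passes in those settings therefore lack a background share. The box for AGA and AGG passed at log2 fold changes of 0.80 (mitochondrial tRNA scaling), 1.15 (snoRNAs), 0.59 (nuclear tRNAs), 1.09 (DESeq2), 1.05 (no filter) and 1.03 (sums fitted alone), and was 0.91 to 1.21 with a library left out. The CGN box passed at 0.61 (DESeq2) and 0.54 (alone) and was 0.41 to 0.75 with a library left out. The arginine sum passed at 0.81 (snoRNAs), 0.75 (DESeq2), 0.73 (no filter) and 0.68 (alone) and was 0.62 to 0.80 with a library left out. Of the anticodon sums, TCT passed by edgeR with library totals (adjusted p = 0.0949), snoRNA scaling (0.0662), nuclear tRNA scaling (0.0762), no filter (0.00879) and sums fitted alone (0.000992). The CCT sum passed with nuclear tRNA scaling (0.076), no filter (0.0268) and sums alone (0.00045), and the TCG sum with sums alone (0.0503). Reversals were the ACG sequence and its sum (-0.19 each) and tRNA:Arg-TCG-1-1 (-0.085) with nuclear tRNA scaling, tRNA:Arg-TCG-3-1 with limma-voom (-0.0012) or a library left out (-0.95 to 1.02), the TCG share with a library left out (-5.82 to 4.22 percentage points), and the arginine minus serine ratio likewise (-0.20 to 0.43). The log2 box ratio for arginine differed by 0.16 to 0.76 with a library left out. The cause of these shifts was not tested.

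Same-numbered libraries did not deviate together (correlations from -0.256 to -0.0228). With the replicate block 14 transcripts were called, the arginine sequence called stayed tRNA:Arg-TCT-1-1 (log2 fold change 0.84, edgeR adjusted p = 0.0467), the TCT sum passed (0.84, 0.0623), and the AGA and AGG box (1.02, 0.141), CGN box (0.55, 0.438) and arginine sum (0.68, 0.28) did not. The box ratio differed by 0.47 within pairs (exact sign-flip p = 0.75). With 3 libraries per genotype this test cannot give a two-sided p below 0.25, so it can decide little.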
